A study of Mus musculus with 8 samples.

Results

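A set of 9 tight junction genes was examined in sorted tumor cells. The set held 6 claudins (*Cldn1*, *Cldn3*, *Cldn4*, *Cldn6*, *Cldn7* and *Cldn12*), occludin (*Ocln*), junctional adhesion molecule A (*F11r*) and the scaffold ZO-1 (*Tjp1*). These genes were found by symbol among the 39089 genes of the deposited tables, and all 9 were present. The cells were Myc-CaP, a mouse prostate cancer line that overexpresses *Myc*, and had received either an empty control vector (Myc-CaP EV, called WT) or a guide that cuts *Arid1a* (*Arid1a* KO). The guide was delivered by a lentiviral vector followed by drug selection, and whether the KO cells were a pool or a clone is not stated. Both lines were grown under the skin of male FVB mice aged 6 weeks. From day 16 the mice were given JSH-23, an inhibitor of the nuclear entry of the NF-κB subunit p65, or the vehicle, corn oil, by mouth for 2 weeks. By the study's methods JSH-23 was in DMSO before its dilution with corn oil, and its figure labels the control groups DMSO. After the treatment, EpCAM-positive, CD45-negative cells were sorted and their RNA was sequenced. The 4 groups of 2 samples were WT with vehicle, WT with JSH-23, *Arid1a* KO with vehicle and *Arid1a* KO with JSH-23. The sources do not say which tumors or animals gave which sample, so that p-values measured only the spread between these samples.

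The deposited tables gave a read count and a TPM value for each gene, where TPM is a level per gene length scaled to the same total in each sample. WT tumors with vehicle had 16650998 and 16803946 counts in total, and WT tumors with JSH-23 had 17792910 and 16401581. *Arid1a* KO tumors with vehicle had 17559823 and 20066676 counts, and those with JSH-23 had 19353506 and 21972231. At this depth 3 counts, taken as the floor of detection, equaled 0.144 to 0.182 CPM, which are counts scaled by library size and TMM factor. This floor covers counting error only. The samples of a group differed by more than sampling noise, the chi-square per degree of freedom being 1.46 to 1.57, so that they were not a library listed again. This does not show that they came from separate tumors, and they are used as replicates because the labels number them so.

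Tight junctions seal the space between neighboring epithelial cells and separate the apical from the basolateral membrane. Claudins are membrane proteins that line up in strands and set which ions and solutes pass between cells. Occludin and JAM-A are further membrane proteins of the junction, and ZO-1 lies beneath the membrane and ties these proteins to actin. In the normal prostate, tight junctions of the luminal cells keep the secreted fluid apart from the tissue beneath.

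The guide target was examined before the junction genes. *Arid1a* encodes a DNA-binding part of SWI/SNF, a complex that remodels chromatin, and the gene lies on chromosome 4 (133679008 to 133756769, minus strand, GRCm38). Its level was 41.9 and 43.5 TPM in vehicle-treated WT tumors and 37.8 and 40.6 TPM in JSH-23-treated WT tumors. It was 27.8 and 28.6 TPM in vehicle-treated *Arid1a* KO tumors and 21.6 and 21.9 TPM with JSH-23. All 4 KO samples lay below all 4 WT samples, which is the direction of the labels, but reads of the gene remained. The log2 fold change of KO against WT was -0.60 ± 0.04 (SE; edgeR, adjusted p = 1.39e-23) with vehicle and -0.66 ± 0.04 (edgeR, adjusted p = 5.12e-25) with JSH-23. The former lies at the edge of 1.5-fold and was -0.58 with library size only, in log2(TPM + 1), without the first KO or without the second WT replicate with vehicle, where it was not called.

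The epithelial label of the sort was only in part reflected by the markers. *Epcam*, which encodes the antigen used for sorting, had 0 counts in 5 of 8 samples and at most 4 counts. *Cdh1*, the cadherin of epithelial adherens junctions, had 1 to 19 counts, and the keratin gene *Krt18* had 4 to 18. *Actb*, in contrast, had 17409 to 30476 counts and *Gapdh* 84116 to 136153. The keratin genes *Krt8*, *Krt19* and *Krt7* were readily detected, with *Krt8* at 44.6 to 158 TPM. Of the prostate luminal markers, *Foxa1* (109 to 163 TPM) and *Hoxb13* (96.8 to 155 TPM) were abundant, whereas *Pbsn* and *Tmprss2* had at most 2 counts in any sample. The mesenchymal filament gene *Vim* stood at 742 to 2390 TPM. *Vim* was lower in KO than in WT tumors (log2 fold change -1.09 with vehicle and -0.85 with JSH-23, edgeR). With JSH-23 it was higher, by 0.87 in KO and 0.63 in WT tumors. The cells are therefore called by their sort gate and line below, with these marker levels in view.

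The epithelial marker list, 6 genes with *Krt19* the most abundant in the KO samples and *Krt8* in 3 of the 4 WT samples, moved with both genotype and treatment. Its summed level was 229 and 212 TPM in vehicle-treated WT tumors, 103 and 105 TPM in JSH-23-treated WT tumors, 458 and 457 TPM in vehicle-treated *Arid1a* KO tumors and 296 and 303 TPM in JSH-23-treated *Arid1a* KO tumors. Between 3 and 4 of its 6 genes reached 1 TPM. The summed level of 11 leukocyte markers was 26.97 and 27.7 TPM in vehicle-treated WT tumors, 27.8 and 12.1 TPM in JSH-23-treated WT tumors, 7.92 and 9.17 TPM in vehicle-treated *Arid1a* KO tumors and 7.91 and 5.51 TPM in JSH-23-treated *Arid1a* KO tumors. The macrophage gene *Lyz2* made up most of it, at 4.66 to 24.7 TPM. *Ptprc*, which encodes CD45, had 0 to 10 counts, and *Ly6g* had 0 in every sample. The summed leukocyte level was thus higher in the WT samples, but without *Lyz2* it was 0.0829 TPM in the second WT sample with JSH-23. That lay below the KO samples (0.411 to 0.921 TPM), while the other WT samples had 3.16 to 4.50 TPM. The part of leukocyte transcripts in the genotype comparisons was not tested.

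Other cell type markers were mostly low. The fibroblast list summed to 11.03 to 21.1 TPM, most of it *Pdgfra*, which was lowest in JSH-23-treated *Arid1a* KO tumors (9.02 and 9.05 TPM). The 8 endothelial markers summed to 0.850 to 2.42 TPM, and the 7 basal and keratinocyte markers to 1.41 to 3.14 TPM, and in neither list did 1 gene lead in every sample. The muscle and pericyte list summed to 0.609 to 6.38 TPM and varied within groups. *Acta2* was at 0.158 and 4.35 TPM in the WT samples with vehicle and at 3.497 and 0 TPM in the *Arid1a* KO samples with JSH-23. The erythroid and adipose list summed to 164 to 196 TPM, of which *Fabp4* took 122 to 161 TPM. The adipose genes *Adipoq* and *Plin1* of the same list had at most 4 and 9 counts in any sample. The erythroid gene *Hba-a1* was at 14.5 to 19.9 TPM in the WT samples and at 29.8 to 50.6 TPM in the KO samples. The other erythroid genes of the list were not higher in KO samples. *Hbb-bs* was at 1.64 to 7.21 TPM in WT and 2.73 to 5.66 TPM in KO samples. *Alas2* was at 1.11 to 1.93 TPM in WT and 0.669 to 1.25 TPM in KO samples. Fewer cells of a type and less RNA per cell cannot be told apart in such bulk samples.

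The 9 genes covered a wide range of levels. *Cldn3* was the highest, at 462 to 576 TPM over the 8 samples, above 98.4% of the 13921 genes that passed a filter on low counts. *F11r* (59.4 to 70.3 TPM) and *Tjp1* (50.2 to 76.4 TPM) followed, and their ranges overlapped, so that no order was given between them. *Cldn12* came next at 33.8 to 37.4 TPM, then *Cldn4* at 9.12 to 15.8 TPM and *Cldn1* at 2.58 to 5.57 TPM, with no overlap between these neighbors. *Cldn7*, *Cldn6* and *Ocln* were near the floor, at no more than 0.511, 0.337 and 0.0670 TPM. These last genes did not pass the filter, which left 6 of the 9 for testing. The cells thus carried *Cldn3* and the scaffold at high levels and hardly any transcript of occludin.

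**Figure D1:**
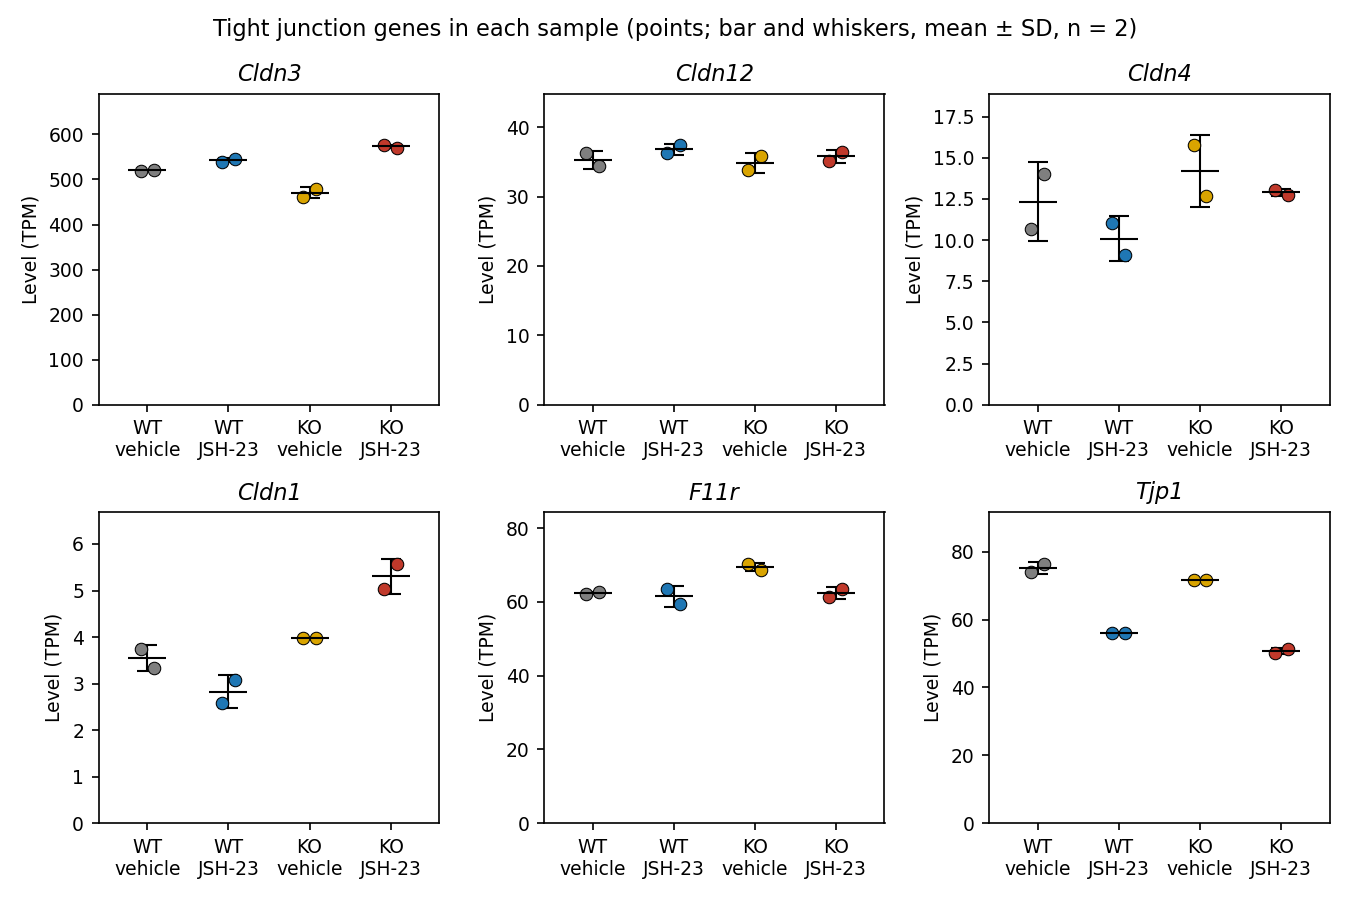
Level in TPM (vertical axis, from 0, a scale of its own for each gene) of the 6 tight junction genes that passed the filter, in each of the 8 samples grouped by genotype and treatment. Points are samples, and the bar and whiskers are the mean and SD of 2 samples. *Cldn3* was lowest in vehicle-treated *Arid1a* KO tumors (462 and 479 TPM) and highest in JSH-23-treated *Arid1a* KO tumors (576 and 571 TPM), and *Tjp1* was lower with JSH-23 in both genotypes.

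The comparisons asked how loss of *Arid1a* and block of p65 entry, alone and together, went with the levels of these genes. Counts of all 13921 genes were fitted with edgeR, and a gene was called when the Benjamini-Hochberg adjusted p was under 0.05 and the change at least 1.5-fold. Log2 fold changes were from counts scaled by TMM, a factor per sample that assumes most genes do not change, and levels are given in TPM unless named otherwise.

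*Cldn3*, a barrier-forming claudin of many glandular epithelia, lies on chromosome 5 (134986214 to 134987476, plus strand). Its level was 519 and 521 TPM in vehicle-treated WT tumors and 539 and 546 TPM in JSH-23-treated WT tumors. In *Arid1a* KO tumors it was 462 and 479 TPM with vehicle and 576 and 571 TPM with JSH-23. No group overlapped another, and the KO samples were the lowest without and the highest with JSH-23. With JSH-23, *Cldn3* rose in KO tumors by a log2 fold change of 0.52 ± 0.02 (SE; edgeR, adjusted p = 6.09e-30), a 1.44-fold change just short of 1.5-fold, and in WT tumors by 0.10 ± 0.03 (edgeR, adjusted p = 0.000544). KO against WT was -0.15 ± 0.03 (edgeR, adjusted p = 9.52e-07) with vehicle and 0.27 ± 0.02 (edgeR, adjusted p = 1.49e-15) with JSH-23. The genotype difference therefore had opposite signs in the 2 treatments, and the interaction was 0.42 ± 0.04 (edgeR, adjusted p = 1.94e-16). These directions held under every scaling tried, but in log2(TPM + 1) the values were smaller, at 0.29 and 0.06 with JSH-23 in KO and WT tumors, 0.08 for KO against WT with JSH-23 and 0.22 for the interaction (limma, adjusted p = 1.47e-05, 0.0392, 0.0135 and 0.00104). No change of *Cldn3* passed an edgeR test with a biological coefficient of variation (BCV) set to 0.1 except that of JSH-23 in KO tumors. The BCV estimated from these samples was 1.61%. For KO against WT, the abundant genes *Actb* and *Gapdh* also changed sign between treatments. They were at -0.38 and -0.18 with vehicle and at 0.45 and 0.36 with JSH-23 (edgeR). Their interactions were 0.84 and 0.54 (edgeR), so that such a change of sign was not particular to *Cldn3*.

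*Cldn1*, a claudin of epidermal and other tight barriers, lies on chromosome 16 (26356645 to 26371839, minus strand). It was the only one of the 6 tested genes to be called, and it was called with 61 to 176 counts per sample. It had 81 and 73 counts in vehicle-treated WT tumors, 61 and 67 in JSH-23-treated WT tumors, 92 and 105 in vehicle-treated *Arid1a* KO tumors and 140 and 176 in JSH-23-treated *Arid1a* KO tumors. Per length, the KO samples with JSH-23 (5.04 and 5.57 TPM) stood above all 6 others (2.58 to 3.98 TPM). With JSH-23 it was 2.15-fold higher in KO than in WT tumors (log2 fold change 1.10 ± 0.17, SE; edgeR, adjusted p = 4.87e-08). In KO tumors it was 1.58-fold higher with JSH-23 than with vehicle (0.66 ± 0.15; edgeR, adjusted p = 0.000122). This value dropped to 0.54 with library size as the only scaling. It was 0.41 in log2(TPM + 0.1) and 0.34 in log2(TPM + 1), scales that differ only in the constant added. Each of these values was under 1.5-fold. In WT tumors the change with JSH-23 was -0.29 ± 0.19 (edgeR, adjusted p = 0.195), and KO against WT with vehicle was 0.16 ± 0.17 (edgeR, adjusted p = 0.470). The JSH-23 effect differed between genotypes by 0.94 ± 0.24 (edgeR, adjusted p = 0.00110). In log2(TPM + 1) the interaction was 0.59 and KO against WT with JSH-23 was 0.72 (limma, adjusted p = 0.0146 and 0.000800).

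The genes whose pattern over the 8 samples was most like that of *Cldn1* were sought among 10212 other genes that averaged 5 CPM or more. *Ccna2*, which encodes the cell cycle protein cyclin A2, had a Pearson r of 0.993 with *Cldn1* in log2 CPM. Its CPM was 129 and 124 in vehicle-treated WT tumors, 114 and 120 in JSH-23-treated WT tumors, 138 and 134 in vehicle-treated *Arid1a* KO tumors and 161 and 165 in JSH-23-treated *Arid1a* KO tumors. *Sec61g*, which encodes a subunit of the protein channel of the endoplasmic reticulum, had an r of 0.982 and ran from 92.9 to 132 CPM. In CPM both were highest in JSH-23-treated KO tumors and lowest in JSH-23-treated WT tumors, as was *Cldn1*, but in TPM *Ccna2* overlapped between KO tumors with vehicle (103.9 and 100.7 TPM) and with JSH-23 (103.2 and 104.8 TPM). The 8 points share groups and libraries, and the values describe likeness only.

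*Cldn4*, a claudin that limits the passage of sodium, lies 39279 bases from *Cldn3* on the opposite strand of chromosome 5 (134945123 to 134946934). Its level was 10.7 and 14.0 TPM in vehicle-treated WT tumors, 11.1 and 9.12 TPM in JSH-23-treated WT tumors, 15.8 and 12.7 TPM in vehicle-treated *Arid1a* KO tumors and 13.1 and 12.7 TPM in JSH-23-treated *Arid1a* KO tumors. Samples with vehicle overlapped between genotypes, and those with JSH-23 did not. KO against WT with JSH-23 was 0.54 ± 0.14 (SE; edgeR, adjusted p = 0.000577), which is 1.45-fold, but 0.33 on the log2(TPM + 1) scale, where its adjusted p by limma was over 0.05. Without the first replicate of WT tumors with JSH-23 it was 0.69 and passed 1.5-fold (edgeR, adjusted p = 0.000691). The other 3 comparisons gave 0.19 ± 0.13 for KO against WT with vehicle, 0.11 ± 0.12 for JSH-23 in KO tumors and -0.25 ± 0.14 for JSH-23 in WT tumors (edgeR, adjusted p = 0.239, 0.462 and 0.143), of which the value in KO tumors turned to -0.12 in log2(TPM + 1). Without the second WT replicate with vehicle, KO against WT with vehicle was 0.40 (edgeR, adjusted p = 0.0459), and without the first, JSH-23 in WT tumors was -0.42 (edgeR, adjusted p = 0.0280). Although a neighbor of *Cldn3*, *Cldn4* had a mean level of 12.4 TPM against 527 TPM.

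*Cldn12*, an unusual claudin without the terminal motif that binds ZO proteins, lies elsewhere on chromosome 5 (5505015 to 5514976, minus strand). In TPM it was nearly flat, with group means of 35.3 ± 1.30 (SD, n = 2) in vehicle-treated WT tumors, 36.8 ± 0.788 with JSH-23, 34.8 ± 1.46 in vehicle-treated *Arid1a* KO tumors and 35.8 ± 0.930 with JSH-23. In CPM scaled by TMM it was 56.6 and 60.1 in vehicle-treated KO tumors and 69.1 and 72.2 with JSH-23. The rise with JSH-23 in KO tumors was 0.28 ± 0.05 (SE; edgeR, adjusted p = 1.33e-06) on the count scale and 0.04 (limma, adjusted p = 0.499) on the log2(TPM + 1) scale. KO against WT with JSH-23 was 0.15 ± 0.05 (edgeR, adjusted p = 0.00879) on the count scale and -0.04 in log2(TPM + 1), and with vehicle it was -0.02 ± 0.05 (edgeR, adjusted p = 0.728). Whether the rise of *Cldn12* passed an adjusted p of 0.05 thus depended on the scaling. Relative to the median of all genes, its value for JSH-23 in KO tumors was 0.30 under TMM and 0.24 in log2(TPM + 1).

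*Cldn6*, *Cldn7* and *Ocln* were at or close to the limit of detection, and no fold change was given for them. *Cldn6*, a claudin of embryonic epithelia, lies on chromosome 17 (23679348 to 23682446, plus strand) and had 1 or 2 counts in 7 of the samples and 5 in a KO sample with JSH-23. *Cldn7*, which lies on chromosome 11 (69964779 to 69967886, plus strand) and encodes a claudin found along the lateral membrane, had 0 to 5 counts. *Ocln*, on chromosome 13 (100496504 to 100552718, minus strand), had 0 counts in 5 samples and no more than 2 in the others. A difference between groups was not detectable for these genes at this depth.

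*F11r*, an immunoglobulin-like adhesion protein of the junction, lies on chromosome 1 (171437561 to 171464593, plus strand). Its level was 62.2 and 62.6 TPM in vehicle-treated WT tumors, 63.5 and 59.4 TPM in JSH-23-treated WT tumors, 70.3 and 68.6 TPM in vehicle-treated *Arid1a* KO tumors and 61.3 and 63.6 TPM in JSH-23-treated *Arid1a* KO tumors. The KO samples with vehicle were the highest, and the other 3 groups overlapped. KO exceeded WT by 0.15 ± 0.05 (SE; edgeR, adjusted p = 0.0100) with vehicle and by 0.21 ± 0.05 (edgeR, adjusted p = 0.000178) with JSH-23, and the latter was 0.02 (limma, adjusted p = 0.656) on the log2(TPM + 1) scale. The former was 1.11-fold and did not keep an adjusted p under 0.05 with a BCV of 0.1 (edgeR, adjusted p = 0.548), with DESeq2 (adjusted p = 0.0888) and without the first KO replicate with vehicle (edgeR, adjusted p = 0.0792) or either WT replicate with vehicle (edgeR, adjusted p = 0.0593 and 0.0531). JSH-23 gave 0.09 ± 0.05 in KO and 0.02 ± 0.05 in WT tumors (edgeR, adjusted p = 0.0964 and 0.751), and both values turned negative in TPM, to -0.15 (limma, adjusted p = 0.0103) and -0.02 (limma, adjusted p = 0.670). In KO tumors the value was 0.14 without the first KO replicate with JSH-23 (edgeR, adjusted p = 0.0319).

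*Tjp1* lies on chromosome 7 (65296165 to 65527850, minus strand), and its product ZO-1 binds claudins, occludin and actin. Its level was 73.9 and 76.4 TPM in vehicle-treated WT tumors and 56.1 and 56.0 TPM with JSH-23. In *Arid1a* KO tumors it was 71.6 and 71.5 TPM with vehicle and 50.2 and 51.3 TPM with JSH-23. All 4 samples with JSH-23 lay below all 4 with vehicle. *Tjp1* fell with JSH-23 by 0.38 ± 0.03 on the log2 scale in WT tumors (SE; edgeR, adjusted p = 1.19e-19) and by 0.26 ± 0.03 in KO tumors (edgeR, adjusted p = 2.28e-13), both under 1.5-fold, and it was lower under every scaling tried. With a BCV of 0.1 the fall in KO tumors did not pass (edgeR, adjusted p = 0.142) and that in WT tumors did (edgeR, adjusted p = 0.0372). The smaller fall in KO tumors gave an interaction of 0.13 ± 0.04 (edgeR, adjusted p = 0.00680) that turned to -0.07 (limma, adjusted p = 0.213) in log2(TPM + 1). Relative to the median of all genes on that scale (-0.17), the interaction was 0.09. KO against WT was -0.08 ± 0.03 (edgeR, adjusted p = 0.0113) with vehicle, and 0.05 ± 0.03 (edgeR, adjusted p = 0.162) with JSH-23, which was -0.14 (limma, adjusted p = 0.00530) in log2(TPM + 1). The value with vehicle was 1.06-fold, and its adjusted p was over 0.05 with DESeq2 (0.0706), with library size only (edgeR, 0.0928), in log2(TPM + 1) (limma, 0.0886), with a BCV of 0.1 (edgeR, 0.773) and without the second WT replicate with vehicle (edgeR, 0.152).

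*Tjp3*, which encodes another ZO protein, was singled out after its values had been seen. It ranged from 9.59 to 17.5 TPM and fell with JSH-23 by 0.40 ± 0.10 on the log2 scale in WT tumors (SE; edgeR, adjusted p = 0.000287), which did not pass with a BCV of 0.1 (edgeR, adjusted p = 0.0581). In KO tumors its value was -0.25 ± 0.10 (edgeR, adjusted p = 0.0166), which is 1.19-fold, had an adjusted p of 0.102 with DESeq2 and of 0.200 with a BCV of 0.1 in edgeR, and was -0.12 without the first KO replicate with vehicle (edgeR, adjusted p = 0.385) and -0.20 without the second KO replicate with JSH-23 (edgeR, adjusted p = 0.139). Both KO samples with JSH-23 lay below both with vehicle, and in log2(TPM + 1) the value was -0.45 (limma, adjusted p = 0.00322). *Tjp3* was thus lower with JSH-23 in both genotypes, as was *Tjp1*, but its size in KO tumors depended on the scaling and the samples.

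**Figure D2:**
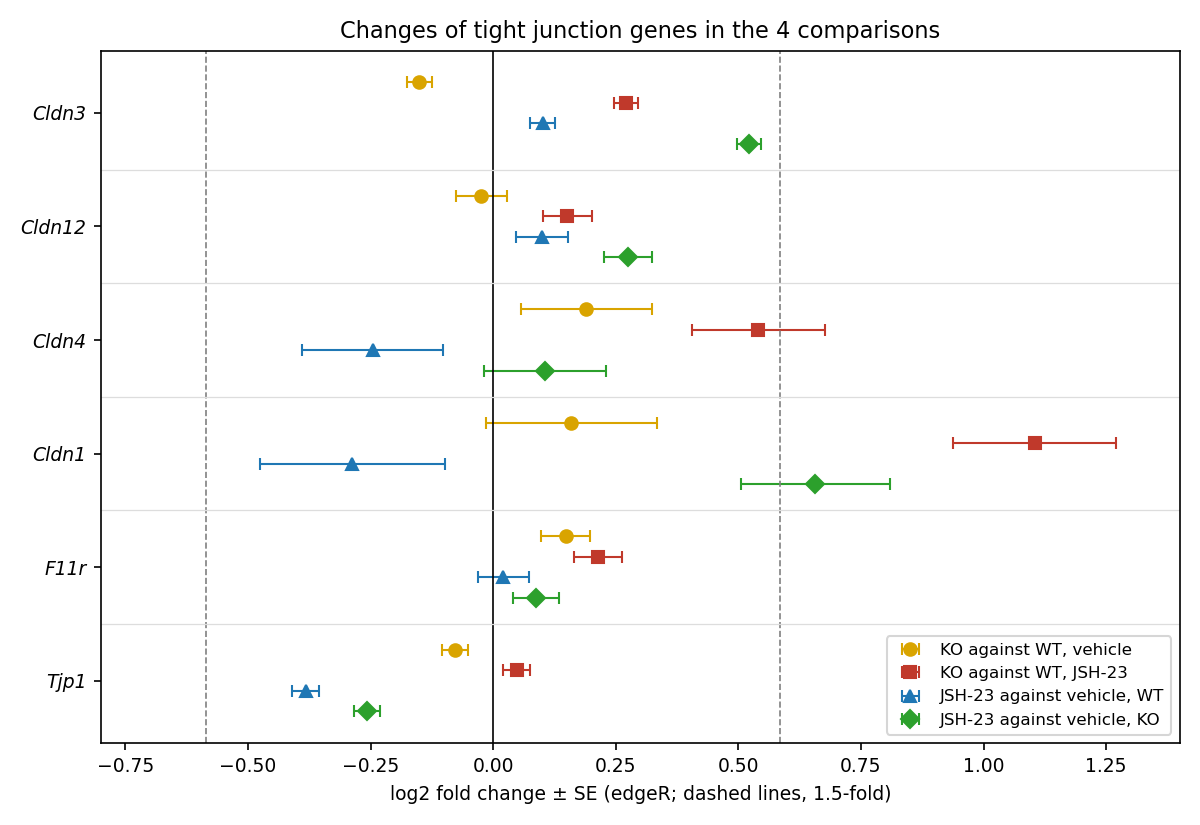
Log2 fold change with its SE (horizontal axis) of the 6 tested tight junction genes in the 4 comparisons, from edgeR on counts scaled by TMM. Dashed lines mark a 1.5-fold change. *Cldn1* was the only gene past the line, at 1.10 for KO against WT with JSH-23 and 0.66 for JSH-23 in KO tumors, and *Tjp1* was below 0 with JSH-23 in both genotypes (-0.38 and -0.26).

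The counts of called tight junction genes are given beside those of all genes, and 6 genes are too few to compare shares. For KO against WT with vehicle, 0 of the 6 tested genes were called by edgeR, and none of the 6 reached 1.5-fold at an unadjusted p under 0.05, with edgeR, DESeq2 or limma on log2(TPM + 1). Without the fold threshold, 3 genes had an unadjusted p under 0.05 with each of these tools. Among all tested genes 7.48% were called higher and 5.16% lower. With JSH-23, 1 of 6 (*Cldn1*) was higher in KO than in WT tumors, against 3.74% of all genes higher and 4.97% lower. For JSH-23 in KO tumors 1 of 6 (*Cldn1*) was higher, against 9.1% higher and 16.9% lower. For JSH-23 in WT tumors edgeR called 0 of 6, and again none passed 1.5-fold at an unadjusted p under 0.05 with any of the 3 tools, although 2, 2 and 3 genes had an unadjusted p under 0.05 with edgeR, DESeq2 and limma, against 5.55% higher and 10.2% lower. In the interaction 1 of 6 (*Cldn1*) was higher, against 3.3% higher and 5.76% lower.

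With the adjusted p alone, without a fold threshold, most comparisons called many genes. KO against WT with vehicle called 3 of the 6 (*Cldn3* and *Tjp1* lower, *F11r* higher), against 50.5% of all genes. With JSH-23 it called 5 of the 6, all higher in KO and all but *Tjp1*, against 47.0%. JSH-23 in KO tumors called 4 (*Cldn1*, *Cldn3* and *Cldn12* higher, *Tjp1* lower), against 67.8%, and in WT tumors 2 (*Cldn3* higher, *Tjp1* lower), against 55.8%. The interaction called 4 (*Cldn1*, *Cldn3*, *Cldn12* and *Tjp1*), against 38.4%. With so many genes called, such shares say little about tight junction genes in particular.

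The median log2 fold change of the 6 tested genes was 0.06 for KO against WT with vehicle, 0.24 with JSH-23, 0.19 for JSH-23 in KO tumors and -0.11 for JSH-23 in WT tumors. For JSH-23 in KO tumors it was -0.04 in log2(TPM + 1). The medians of the other comparisons also moved with the scaling or with a single sample, as given in the last section. The medians of all tested genes were 0.00325, -0.0107, -0.0202 and -0.00605. Scaling mattered for comparisons with KO tumors given JSH-23. For JSH-23 in KO tumors, library size alone put the median of all genes at -0.13 and the log2(TPM + 1) scale at -0.20. Relative to the median of all genes under TMM, library size and log2(TPM + 1), *Cldn3* was at 0.54, 0.54 and 0.49, *Cldn1* at 0.68, 0.68 and 0.55, and *Tjp1* at -0.24, -0.24 and -0.28. *Cldn12* was at 0.30, 0.30 and 0.24, *F11r* at 0.11, 0.11 and 0.05, and *Cldn4* at 0.13, 0.13 and 0.08. The TMM and library size values are the same by construction, since these scalings differ by a factor per sample, so that only log2(TPM + 1) is a further comparison here, and it gave the same signs. The share of called genes that were higher moved in the same way, from 35.0% under TMM to 22.5% and 12.8% for JSH-23 in KO tumors, from 42.9% to 29.6% and 15.9% for KO against WT with JSH-23, and from 36.5% to 18.8% and 10.6% for the interaction.

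The claudins were next set side by side as shares of the summed TPM of all 33 claudin genes in the tables, of which 14 had 0 counts in every sample. *Cldn3* took 58.5% and 58.3% in vehicle-treated WT tumors, 60.0% and 59.4% in JSH-23-treated WT tumors, 54.9% and 56.5% in vehicle-treated *Arid1a* KO tumors and 58.6% and 58.7% in JSH-23-treated *Arid1a* KO tumors. *Cldn10*, a claudin that forms channels for ions, took most of the rest, with group means between 30.1% and 33.5%. The 3 most abundant claudins made up 93.1% to 95.9% of the pool in every sample. The claudin pool of these cells was thus mostly made of a barrier claudin and a channel claudin, and its summed level was 841 to 983 TPM.

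**Figure D3:**
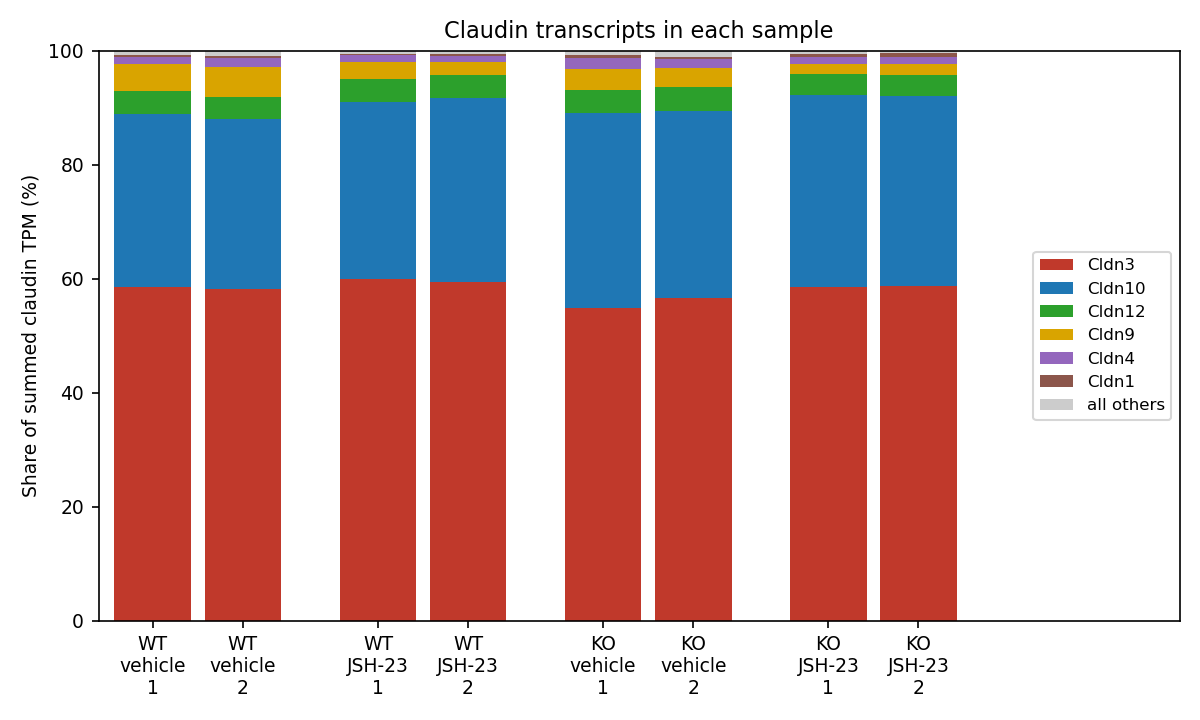
Share of each claudin in the summed claudin TPM (vertical axis, percent) for each of the 8 samples, named by genotype, treatment and replicate. *Cldn3* (bottom) took 54.9% to 60.0% and *Cldn10* 29.8% to 34.1%, and the share of *Cldn9* was smaller with JSH-23.

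*Cldn10* and *Cldn9* moved in opposite ways, and both were singled out after their values had been seen. *Cldn10*, on chromosome 14 (118787871 to 118874525, plus strand), was at 270 and 266 TPM in vehicle-treated WT tumors, 279.5 and 297 TPM in JSH-23-treated WT tumors, 287 and 278 TPM in vehicle-treated *Arid1a* KO tumors and 331 and 324 TPM in JSH-23-treated *Arid1a* KO tumors. As with *Cldn3*, its samples were highest in JSH-23-treated KO tumors, where it rose by 0.45 ± 0.03 (SE; edgeR, adjusted p = 5.44e-22), against 0.14 ± 0.03 (edgeR, adjusted p = 0.000140) in WT tumors. In log2(TPM + 1) these values were 0.21 and 0.10 (limma, adjusted p = 0.000601 and 0.0268), and with a BCV of 0.1 that in WT tumors did not pass (edgeR, adjusted p = 0.506). *Cldn9*, a close relative of *Cldn6*, lies 137 bases from it on the opposite strand (23682584 to 23684026), the ends of the genes facing each other. *Cldn9* was at 41.5 and 47.3 TPM in vehicle-treated WT tumors, 26.2 and 22.0 TPM in JSH-23-treated WT tumors, 31.7 and 28.9 TPM in vehicle-treated *Arid1a* KO tumors and 17.1 and 17.9 TPM in JSH-23-treated *Arid1a* KO tumors. It fell with JSH-23 by 0.84 ± 0.10 on the log2 scale in WT (edgeR, adjusted p = 2.47e-11) and by 0.55 ± 0.10 in KO tumors (edgeR, adjusted p = 3.81e-06), and KO against WT with vehicle was -0.56 ± 0.09 (edgeR, adjusted p = 4.28e-07). The value in KO tumors, 1.46-fold, passed 1.5-fold with library size only (-0.66), in log2(TPM + 0.1) and log2(TPM + 1) (-0.79 and -0.76) and without the second KO replicate with vehicle (-0.61). That with vehicle, 1.47-fold, passed it without the first KO (-0.63) or the first WT (-0.65) replicate. Of this pair of neighbors, then, *Cldn9* was well expressed while *Cldn6* was near the floor in the same samples.

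Beyond the 9 genes, 119 other genes of cell junctions and their control were grouped in 8 lists, and 80 of them were tested. For KO against WT with vehicle 8 were called higher and 2 lower, with a median log2 fold change of -0.02, and for JSH-23 in KO tumors 4 higher and 17 lower, with a median of -0.00128. With JSH-23, KO against WT called 4 higher and 3 lower, and JSH-23 in WT tumors called 3 higher and 7 lower. The interaction called 1 higher and 4 lower. Of all genes, 7.48% were higher and 5.16% lower for KO against WT with vehicle, 3.74% and 4.97% with JSH-23, 9.1% and 16.9% for JSH-23 in KO tumors, 5.55% and 10.2% for the same treatment in WT tumors and 3.3% and 5.76% in the interaction. By adjusted p alone the listed genes were balanced, with 27 higher and 29 lower for JSH-23 in KO tumors and 26 and 28 in WT tumors. More of the called genes were thus lower than higher with JSH-23, among junction genes as among all genes.

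Among membrane proteins of the junction, 4 of 13 were tested. *Crb3*, which encodes an apical polarity protein, was at 11.03 and 10.7 TPM in WT and 23.9 and 21.6 TPM in vehicle-treated *Arid1a* KO tumors (log2 fold change 1.05 ± 0.14, SE; edgeR, adjusted p = 9.79e-10). For JSH-23 in KO tumors, 9.1% of all genes were called higher and 16.9% lower. Of the other claudins, 5 of 21 were tested. *Cldn2*, a channel for cations and water, was the only one of them called for JSH-23 in KO tumors (-1.08 ± 0.31; edgeR, adjusted p = 0.00147), but it had 77 counts in the second KO replicate with vehicle against 37 in the first, and the value was -0.56 (edgeR, adjusted p = 0.237) without the second.

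All 20 scaffold genes were tested. *Amotl2*, which encodes an angiomotin of the polarity complex, was the only one called for KO against WT with vehicle (-0.77 ± 0.06, SE; edgeR, adjusted p = 8.24e-18). Of all genes, 7.48% were called higher and 5.16% lower in that comparison. For JSH-23 in KO tumors 2 were higher and 2 lower. *Patj*, a partner of Crumbs and of the claudins, rose from 22.4 and 22.9 to 34.2 and 34.8 TPM (0.85 ± 0.03; edgeR, adjusted p = 5.10e-35), and *Magi1* rose by 0.72 ± 0.06 (edgeR, adjusted p = 2.07e-17). The lower genes included the polarity gene *Pard6a*, which fell by 0.75 ± 0.10 (edgeR, adjusted p = 1.93e-09). In log2(TPM + 1) *Magi1* was at 0.43 (limma, adjusted p = 0.00178), under 1.5-fold. The scaffold list was therefore split in direction, with 2 of 20 genes each way beside the 9.1% higher and 16.9% lower of all genes.

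Of 16 genes that signal to or from the junction, all were tested, and 2 were lower for JSH-23 in KO tumors, beside 16.9% of all genes. These were *Mylk*, the myosin light chain kinase that opens junctions by contraction (-0.92 ± 0.08, SE; edgeR, adjusted p = 4.58e-17), and *Arhgef2*, an exchange factor for RhoA held at junctions (-0.74 ± 0.03; edgeR, adjusted p = 1.02e-35). Of the genes for enzymes that process or turn over claudins and their inhibitors, 7 of 9 were tested. For JSH-23 in KO tumors 2 were higher and 2 lower, beside 9.1% and 16.9% of all genes. The protease gene *Prss8* was among the lower (-0.87 ± 0.19; edgeR, adjusted p = 5.17e-05), and the ubiquitin ligase gene *Lnx1* (0.80 ± 0.12; edgeR, adjusted p = 3.31e-08) and the protease inhibitor gene *Spint1* (0.69 ± 0.14; edgeR, adjusted p = 2.33e-05) were the higher ones. In log2(TPM + 1) these 2 were at 0.42 and 0.40 (limma, adjusted p = 0.00942 and 0.0194), under 1.5-fold, as was *Spint1* with library size only (0.58) and without the first KO replicate with vehicle (0.58). Among adherens junction genes (7 of 10 tested) *Nectin1* was the only one called for JSH-23 in KO tumors (-0.79 ± 0.07; edgeR, adjusted p = 1.80e-17), and among desmosome genes (8 of 10 tested) *Pkp3* (-0.76 ± 0.11; edgeR, adjusted p = 5.39e-09) and *Evpl* (-0.70 ± 0.04; edgeR, adjusted p = 8.62e-25) were lower.

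Of 20 transcription and splicing regulators with known roles at claudin or other epithelial genes, 13 were tested. With vehicle, 5 were higher and 1 lower in KO than in WT tumors, and for JSH-23 in KO tumors 6 were lower. The shares of all genes were 7.48% higher and 5.16% lower with vehicle, and 9.1% and 16.9% for JSH-23 in KO tumors. *Grhl1*, a grainyhead factor, was at 1.45 and 1.52 TPM in WT and 5.70 and 6.35 TPM in vehicle-treated *Arid1a* KO tumors, and at 2.21 and 2.13 TPM in JSH-23-treated KO tumors. Its log2 fold change was 2.01 ± 0.19 (SE; edgeR, adjusted p = 5.16e-15) for KO against WT with vehicle and -1.24 ± 0.16 (edgeR, adjusted p = 4.52e-10) for JSH-23 in KO tumors. The epithelial ETS factor gene *Elf3* was at 38.3 and 34.8 TPM in WT, 97.0 and 98.5 TPM in *Arid1a* KO with vehicle and 37.3 and 38.9 TPM in JSH-23-treated KO tumors, with values of 1.41 ± 0.06 (edgeR, adjusted p = 7.04e-31) and -1.12 ± 0.06 (edgeR, adjusted p = 2.11e-27). *Klf5* rose by 0.72 ± 0.05 in vehicle-treated KO tumors (edgeR, adjusted p = 1.18e-21), and *Klf4* fell by 1.04 ± 0.04 with JSH-23 in KO tumors (edgeR, adjusted p = 9.13e-35). These 4 genes were named for the size of their changes in these comparisons, and other regulators of the list went other ways.

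Promoter windows of 300 bases (250 before and 50 after the annotated start, RefSeq, GRCm38.p6) were found for all 9 genes, 13 windows in all. They were searched for the E-box CAGGTG, read as CAGGTG or CACCTG depending on the strand, which is bound by factors of the SNAI and ZEB families that repress epithelial genes. It occurred in 20.2% of 32841 mouse promoter windows. The windows of *Cldn3*, *Cldn4*, *Cldn1* and *Ocln* that begin at the start given in the tables are shown because they belong to the most abundant gene, its weakly expressed neighbor, the called gene and a gene near the floor. The capitals mark the E-box, and positions count from 1 at the start site. *Cldn3* (chr5:134985964-134986263, plus strand) held it at position 32, *Cldn4* (chr5:134946885-134947184, minus strand) at positions -14 and 12, and *Ocln* (chr13:100552669-100552968, minus strand) at position 8. *Cldn1* (chr16:26371790-26372089, minus strand) held none.
Cldn3: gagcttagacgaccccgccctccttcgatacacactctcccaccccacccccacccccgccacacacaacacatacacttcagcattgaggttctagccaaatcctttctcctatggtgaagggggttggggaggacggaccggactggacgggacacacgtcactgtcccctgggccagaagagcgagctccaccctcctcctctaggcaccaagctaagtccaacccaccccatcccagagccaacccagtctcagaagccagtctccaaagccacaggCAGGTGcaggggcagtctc
Cldn4: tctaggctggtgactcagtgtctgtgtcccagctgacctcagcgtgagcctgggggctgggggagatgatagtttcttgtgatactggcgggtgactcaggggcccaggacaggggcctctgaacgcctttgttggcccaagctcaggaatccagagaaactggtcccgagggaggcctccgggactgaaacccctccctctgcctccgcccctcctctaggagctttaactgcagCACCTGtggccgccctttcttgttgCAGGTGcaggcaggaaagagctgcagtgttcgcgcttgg
Cldn1: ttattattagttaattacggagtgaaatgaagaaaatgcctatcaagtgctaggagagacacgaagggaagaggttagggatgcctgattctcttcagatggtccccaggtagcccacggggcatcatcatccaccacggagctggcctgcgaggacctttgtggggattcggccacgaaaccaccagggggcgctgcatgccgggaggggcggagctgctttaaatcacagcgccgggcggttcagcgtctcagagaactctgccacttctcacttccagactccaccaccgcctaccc
Ocln: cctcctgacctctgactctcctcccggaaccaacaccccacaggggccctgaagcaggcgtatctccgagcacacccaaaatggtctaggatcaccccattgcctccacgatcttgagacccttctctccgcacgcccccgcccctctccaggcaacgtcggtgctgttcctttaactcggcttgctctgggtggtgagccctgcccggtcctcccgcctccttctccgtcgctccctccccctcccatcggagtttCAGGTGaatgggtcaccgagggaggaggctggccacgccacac

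The windows of *Cldn3* and *Cldn4* were alike in composition, with 9 CpG each and 60.7% and 61.0% G or C, although the levels of the genes lay far apart. *Ocln* had 17 CpG and 64.0% G or C, and *Cldn1* had 15 and 56.0%, against medians of 7 and 52.7% over all windows. The E-box thus occurred both in a gene at 462 to 576 TPM and in genes near the floor, *Cldn6* and *Ocln* among them. A window of *Cldn7* and that of *F11r* also held it, and no window of *Cldn1*, *Cldn12* or *Tjp1* did. The E-box CACGTG, the letters that MYC binds (7.15% of all windows), the grainyhead letters AACCGGTT (0.146%) and the κB motif (4.51%) had no match in any of the 13 windows. A match describes letters only, and a missing match says nothing of binding.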

How the data were processed

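RNA of sorted tumor cells was measured in 8 samples, 2 in each of 4 groups. Per the file headers, the deposited tables give read counts per gene symbol and TPM. The TPM step is not described, and the deposited TPM values equaled the count divided by the gene length in the table, scaled to the same total in each sample. The study's methods name TopHat2 with GRCm38/mm10, the best match of each read, and HTSeq-count. The submitters' processing notes name HISAT2, HTSeq and DESeq2. These differ on the aligner, and which was used for the tables is not known.

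Counts were tested in R 4.3.3 with edgeR 4.0.16 (quasi-likelihood F test, TMM factors of 0.949 to 1.03, 4 group means, all samples in 1 fit). The filterByExpr function kept 13921 of 39089 genes. All adjusted p-values are Benjamini-Hochberg over all tested genes. A gene was called at an adjusted p under 0.05 and at least 1.5-fold. The comparisons were KO against WT under each treatment, the JSH-23 effect in KO and in WT tumors, and the interaction, which is the JSH-23 effect in KO minus that in WT. The SE is the log2 fold change divided by the square root of F. CPM values are scaled by TMM. Depth was 16401581 to 21972231 counts, and a gene at or below 3 counts was taken as at the floor.

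Alternatives were DESeq2 1.42.0, limma 3.58.1 on log2(TPM + 1) and log2(TPM + 0.1), library size only, DESeq2 size factors in edgeR, no filter, a minimum of 10 counts per sample, a replicate block, only the groups compared, a BCV of 0.1, and leaving out each sample. The edgeR and DESeq2 fits were tested on simulated data. Figures were drawn with Python 3.11.15 and matplotlib 3.10.9.

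The 9 genes and the lists were chosen with earlier results of these data known. Named besides them were *Arid1a* and, per junction list, up to 3 called genes with the largest change and a mean of at least 1 CPM, for KO against WT with vehicle and for JSH-23 in KO. For each called gene of the 9, the 2 genes most like it over the 8 samples were named. Other genes were named after their values were seen. Marker lists covered epithelial, prostate luminal, basal and keratinocyte, leukocyte, fibroblast, endothelial, muscle and pericyte, and erythroid and adipose cells. Promoter windows came from RefSeq on GRCm38.p6. The combined TPM table was left out because the tables per sample hold the same values. Some results for genes of these lists, and the summed level of the prostate luminal list, are not reported here.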

Additional observations from a re-analysis of the deposited data

Results flagged for a closer look

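KO and WT tumors differed in their response to JSH-23 for 4 of the 6 tested tight junction genes, by the interaction test of edgeR at an adjusted p under 0.05. The log2 difference (KO minus WT, ± SE) was 0.94 ± 0.24 for *Cldn1* (edgeR, adjusted p = 0.00110), 0.42 ± 0.04 for *Cldn3* (edgeR, adjusted p = 1.94e-16), 0.18 ± 0.07 for *Cldn12* (edgeR, adjusted p = 0.0457) and 0.13 ± 0.04 for *Tjp1* (edgeR, adjusted p = 0.00680). Of these, *Cldn12* and *Tjp1* changed sign in log2(TPM + 1), to -0.02 and -0.07. The median of all genes was -0.17 on that scale, and relative to it *Cldn12* and *Tjp1* were at 0.14 and 0.09. Neither passed with DESeq2 (adjusted p = 0.186 and 0.0526) or with library size only (edgeR, adjusted p = 0.453 and 0.691), and *Cldn12* did not pass without a filter (edgeR, adjusted p = 0.0819) or without the second KO replicate with JSH-23, the first KO replicate with vehicle, the first WT replicate with JSH-23 or the first WT replicate with vehicle (edgeR, adjusted p = 0.127 to 0.199). The interaction called 38.4% of all tested genes by the same rule, so such a difference was common.

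Among the other named genes the difference was positive for *Amotl2* (0.59 ± 0.09), *Patj* (0.44 ± 0.05), *Magi1* (0.29 ± 0.08) and *Cldn10* (0.31 ± 0.04), the last named after its values were seen (edgeR, adjusted p = 6.57e-08, 7.22e-13, 0.00434 and 2.46e-08). The value of *Amotl2*, just past 1.5-fold, was under it with library size only (0.49) and in log2(TPM + 1) (0.39). It was also under 1.5-fold without the first replicate of WT with vehicle, KO with vehicle or KO with JSH-23 (0.53 to 0.54). Without the second WT replicate with JSH-23 it was 0.55. In log2(TPM + 1) the values of *Cldn10* and *Magi1* were 0.11 and 0.07 (limma, adjusted p = 0.0845 and 0.634). *Magi1* was also not past the threshold with library size only (0.18; edgeR, adjusted p = 0.0745) or without the first WT replicate with vehicle (0.19; edgeR, adjusted p = 0.105). It was negative for *Pard6a* (-0.49 ± 0.15), *Mylk* (-0.51 ± 0.11), *Arhgef2* (-0.40 ± 0.04), *Nectin1* (-0.71 ± 0.09) and *Evpl* (-0.34 ± 0.06) (edgeR, adjusted p = 0.00755, 0.000139, 2.38e-13, 1.68e-10 and 2.20e-06). With DESeq2 *Pard6a* did not pass (adjusted p = 0.0775). The regulators *Grhl1* (-1.99 ± 0.28), *Elf3* (-0.76 ± 0.10), *Klf5* (-0.42 ± 0.07) and *Klf4* (-0.81 ± 0.06) also had negative differences (edgeR, adjusted p = 8.66e-09, 2.02e-09, 1.41e-06 and 1.13e-18). *Elf3*, *Klf5* and *Klf4* fell more with JSH-23 in KO than in WT tumors. *Grhl1* fell with JSH-23 in KO tumors but was higher with it in WT tumors (2.70 and 2.15 TPM). With a BCV of 0.1, only the differences of *Cldn1*, *Nectin1*, *Grhl1*, *Elf3* and *Klf4* passed an adjusted p of 0.05 in edgeR. The cause of these differences was not tested.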

How the results depend on the processing

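Of 1927 alternative values, 1762 were unchanged, which for a gene means the same direction and the same side of an adjusted p of 0.05, without the fold threshold, for a count a value within 1.5 times, and for a median or share a move within the spread of replicates. With the fold threshold, calls of named genes changed in 48 cases. Where a sample was left out, its group had 1 sample, assumed to vary like the other groups.

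Calls of the 6 tested genes kept their number in most settings. For JSH-23 in KO tumors the count of 1 became 0 with library size only and with limma on log2(TPM + 0.1) and log2(TPM + 1), where *Cldn1* was under 1.5-fold. For KO against WT with JSH-23, leaving out a sample gave 1 to 2. By adjusted p alone, KO against WT with vehicle gave 0 with a BCV of 0.1 and 1 with DESeq2. With JSH-23 it gave 2 with a BCV of 0.1 and 3 with both limma scales. JSH-23 gave 2 in KO and 1 in WT tumors with a BCV of 0.1. The interaction gave 1 with a BCV of 0.1 and 2 with DESeq2, library size only and both limma scales.

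For the interaction, 747 of all genes were called with a BCV of 0.1. The junction lists had 9 genes called with library size only, 13 with limma on log2(TPM + 0.1) and 12 on log2(TPM + 1), in place of 5.

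The median log2 fold change of the tested genes moved with scaling. With library size only, limma on log2(TPM + 0.1) and limma on log2(TPM + 1) it was 0.16, 0.0515 and 0.0513 for KO against WT with JSH-23, 0.0770, -0.0456 and -0.0422 for JSH-23 in KO tumors and 0.16, 0.0651 and 0.0588 for the interaction. For JSH-23 in WT tumors it was -0.15 on log2(TPM + 0.1). Leaving out a sample gave 0.00770 to 0.0585 for KO against WT with vehicle, 0.197 to 0.254 for JSH-23 in KO tumors, -0.113 to -0.00502 for JSH-23 in WT tumors and 0.183 to 0.288 for the interaction.

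Signs reversed for small changes. With library size only these were *Cldn12* for KO against WT with vehicle (0.00158), *Tjp1* for KO against WT with JSH-23 (-0.0294), *Cldn4* (-0.00802) and *F11r* (-0.0266) for JSH-23 in KO tumors, and *F11r* in the interaction (-0.0375). On log2(TPM + 0.1) and log2(TPM + 1), KO against WT with JSH-23 was -0.0415 and -0.0405 for *Cldn12* and -0.144 and -0.141 for *Tjp1*. JSH-23 in KO tumors was -0.130 and -0.122 for *Cldn4* and -0.153 and -0.151 for *F11r*, and in WT tumors -0.0219 and -0.0216 for *F11r*. The interaction was -0.0210 and -0.0206 for *Cldn12*, -0.0727 and -0.0712 for *Tjp1* and -0.131 and -0.129 for *F11r*. Leaving out a sample gave -0.0714 to 0.0138 for *Cldn12* (KO against WT with vehicle), -0.0447 to 0.268 for *Cldn4* (JSH-23 in KO) and -0.0247 to 0.0734 for *F11r* (JSH-23 in WT). TMM and library size differ by a factor per sample. Relative to the median of all genes, the values listed for library size were nearly the same under both. Relative to that median, the values listed for log2(TPM + 1) also had the sign they had under TMM. The cause of the other reversals was not tested.

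In CPM the share of *Cldn3* was 50.2% and 51.4% in WT tumors (vehicle, JSH-23) and 47.5% and 50.7% in KO tumors (vehicle, JSH-23). In TPM, among the 6 claudins of the set alone, it was 90.9%, 91.6%, 89.8% and 91.3% in the same order of groups.

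For samples with the same number, deviations from the group means had an r of -0.0964 to 0.0401 between groups. A weak shared batch could go unseen in such values, because they include counting noise. With a replicate block 1750, 1200, 3612, 2187 and 1269 genes were called. Depth limits *Cldn6*, *Cldn7* and *Ocln*, which were at 5 counts or fewer.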
